A study of Mus musculus with 6 samples.

Results

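The circadian clock genes described here are Per1, Per2, Per3, Cry1, Cry2, Dbp, Tef, Arntl, Clock and Bhlhe40. They were taken by symbol from the deposited expression table, and all 10 were found among its 24413 gene rows. All 10 also passed the filter for testing, a mean signal of at least 1, which left 12550 genes. The cells were W-EGFP cells, testicular interstitial cells of FLE-EGFP mice at E16.5 (embryonic day), a line in which a fetal Leydig enhancer of Nr5a1 is known to drive the fluorescent protein EGFP. Per the labels, 10000 cells per sample were kept for 1 hour with 0.5 µM SAG, an agonist of Smoothened, the transducer of Hedgehog signals, or with the vehicle DMSO. Each group had 3 libraries. The column names of both groups also carry "siCnt", which the labels do not explain. The clock time at which the cells were taken, the strain background, and whether replicates came from separate animals or cultures are not stated in any source used here.

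The mammalian clock is a loop of transcription and feedback that runs in most cells. CLOCK and BMAL1 (the product of Arntl) bind E-box sequences as a pair and activate the Per and Cry genes, whose proteins return to the nucleus and repress that pair. DBP and TEF are outputs of the loop that activate genes through D-boxes, REV-ERB and ROR nuclear receptors act on Arntl through ROR elements, and DEC1 (the product of Bhlhe40) is a repressor that binds E-boxes. Bhlhe40 and Per1 are also known to respond quickly to signals from outside the cell. In Leydig cells of adult mice, Arntl is known to be needed for normal steroidogenic gene expression.

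Promoter sequences are shown for Cry2 and Clock, members whose levels differed between the groups, and for Cry1, Per1 and Per3, each of which carried a pair of matches to clock elements in 1 window, the most per window among members. Each line gives the 250 bases before a RefSeq transcription start, 5′ to 3′ on the gene's own strand, with capitals marking a motif match. The coordinates are on GRCm38.p6. Cry2 is chr2:92434070-92434319 on the minus strand, Clock chr5:76304793-76305042 on the minus strand, and Cry1 chr10:85185055-85185304 on the minus strand. Per1 is chr11:69098699-69098948 on the plus strand and Per3 is chr4:151044666-151044915 on the minus strand.
Cry2: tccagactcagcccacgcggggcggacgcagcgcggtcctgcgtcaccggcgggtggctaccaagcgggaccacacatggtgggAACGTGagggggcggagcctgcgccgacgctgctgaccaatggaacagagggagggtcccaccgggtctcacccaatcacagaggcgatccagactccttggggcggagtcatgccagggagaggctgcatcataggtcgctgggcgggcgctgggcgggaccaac
Clock: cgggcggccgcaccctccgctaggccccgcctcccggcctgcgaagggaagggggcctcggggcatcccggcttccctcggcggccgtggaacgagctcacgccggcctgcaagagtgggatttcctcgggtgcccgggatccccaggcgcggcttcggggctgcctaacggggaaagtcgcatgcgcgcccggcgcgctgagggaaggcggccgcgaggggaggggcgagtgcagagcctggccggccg
Cry1: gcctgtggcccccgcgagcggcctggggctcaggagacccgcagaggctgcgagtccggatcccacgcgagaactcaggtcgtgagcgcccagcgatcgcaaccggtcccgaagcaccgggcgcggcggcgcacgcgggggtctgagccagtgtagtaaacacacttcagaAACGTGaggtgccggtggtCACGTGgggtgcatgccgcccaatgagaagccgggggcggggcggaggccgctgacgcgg
Per1: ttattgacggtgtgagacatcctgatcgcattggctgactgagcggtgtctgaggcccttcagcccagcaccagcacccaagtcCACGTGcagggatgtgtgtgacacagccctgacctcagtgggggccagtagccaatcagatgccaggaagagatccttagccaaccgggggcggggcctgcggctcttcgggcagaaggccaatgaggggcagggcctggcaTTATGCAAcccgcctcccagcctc
Per3: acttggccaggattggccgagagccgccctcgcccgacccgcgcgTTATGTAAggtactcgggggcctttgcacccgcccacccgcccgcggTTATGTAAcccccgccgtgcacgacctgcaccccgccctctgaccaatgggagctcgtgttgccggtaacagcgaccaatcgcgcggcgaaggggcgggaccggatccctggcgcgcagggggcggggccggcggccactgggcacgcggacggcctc

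A total of 6 motifs were searched on both strands in windows of 300 bases, from 250 bases before to 50 bases after the start: the E-box CACGTG, the E′-box CACGTT, the D-box as TTATGTAA or TTATGCAA, the ROR element core TAGGTCA, the cAMP element TGACGTCA and the GLI site GACCACCCA. Windows were held for 8 of the 10 members, 13 windows in all. Per2 and Bhlhe40 had no window, so their promoters were not searched. Over all 32851 windows, 7.15% held the E-box, 4.68% the E′-box, 1.66% a D-box, 2.61% the ROR core, 1.79% the cAMP element and 0.253% the GLI site. No match overlapped another in the members. Among the printed promoters, Cry2 held an E′-box at positions -166 to -161. Cry1 held an E-box at -60 to -55 and an E′-box at -79 to -74. Per1 held an E-box at -166 to -161 and a D-box at -24 to -17, and Per3 held D-boxes at -205 to -198 and -158 to -151. Of the windows not printed, each of the pair for Tef held an E-box, and 1 of the pair for Arntl held a ROR core at 31 to 37. The 3 Clock windows and the Dbp window held none of these letters, and no member window held the cAMP element or the GLI site. These matches are descriptions of letters and not of binding.

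With SAG, Bhlhe40 and Clock fell, Cry2 rose, and the other 7 members did not pass the test. Calls are from limma, fitted to log2(signal + 1) of all tested genes, where the adjusted p (Benjamini-Hochberg) was under 0.05. Thus 1 of 10 members was called higher, where 12.9% of all tested genes were, and 2 of 10 were called lower, where 16.6% were, which makes 3 of 10 against 29.6% in either direction. These shares are close to the background, so the counts do not set the clock genes apart from other genes. The median log2 fold change (SAG minus DMSO) was 0.10 over the members and -0.03 over all tested genes. The groups did not overlap for 4 members, Per3 being the fourth, and for 48% of all tested genes. In bulk RNA, fewer cells of a type and less RNA per cell cannot be told apart.

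**Figure D1:**
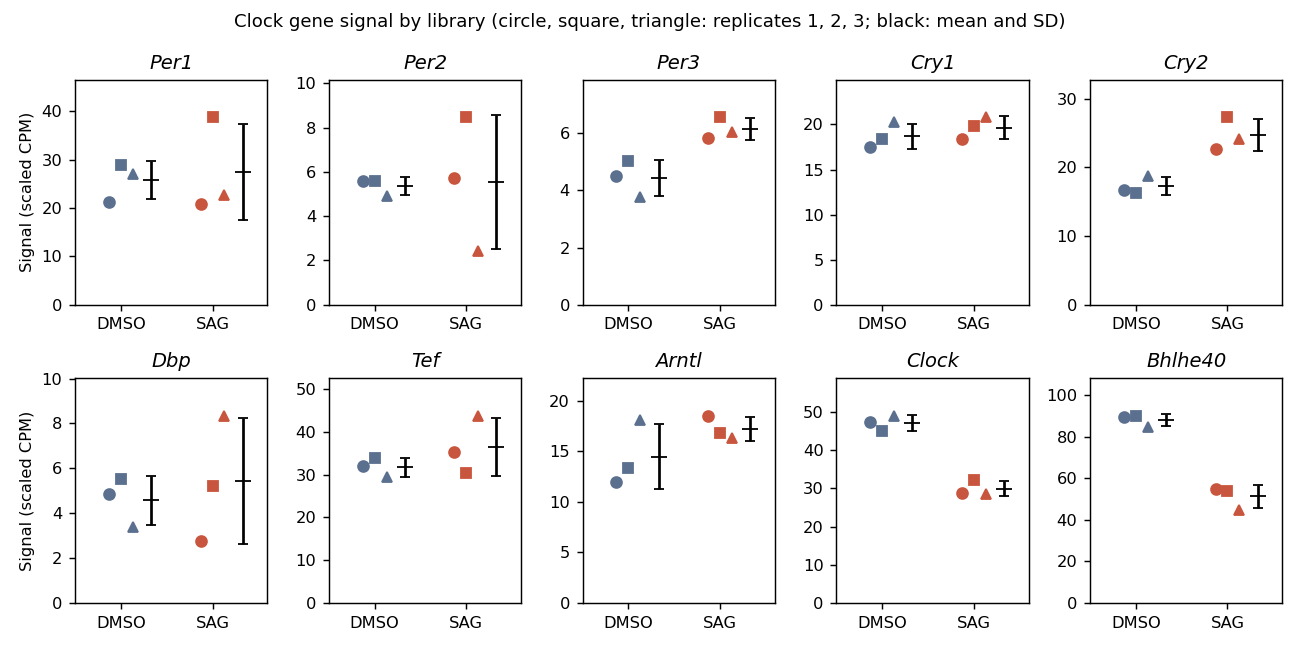
Deposited signal (scaled CPM) of each of the 10 clock genes in every library, with DMSO in blue, SAG in red and the mean and SD in black; each panel has its own axis from 0. Bhlhe40 and Clock sit lower in all 3 SAG libraries, Cry2 and Per3 sit higher, and Per1, Per2 and Dbp spread widely within SAG.

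The libraries differed in depth, in 1 outlying sample and in spike-in reads. Reads, those on spike-ins included, numbered 18486396 to 25491259 per DMSO library and 7694479 to 8804335 per SAG library. SAG replicate 3 stood apart on the second principal component, with a score of 31.5 against -15.1 and -23.7 in the other SAG libraries. Reads on the 92 ERCC spike-in sequences, which no label mentions, were 0 in each DMSO library and 111, 54 and 1205 in SAG replicates 1 to 3. Their part in the results was not tested. Rn45s, a ribosomal RNA gene, took 1.67% of reads in SAG replicate 3 and 0.326% to 0.360% in the other libraries. Without SAG replicate 3, log2 fold changes were 0.15 for Per1, 0.41 for Per3 and 0.03 for Cry1. They were 0.05 for Tef and 0.29 for Arntl. These members did not pass with all libraries, and none of them passed without SAG replicate 3 either. The other members are given without that library below. The Hedgehog target Gli1, as a check of the treatment, was at 0.704, 0.324 and 0.846 in DMSO and at 32.6, 46.3 and 30.8 with SAG. Nr5a1 was at 116.5 to 123.6 in DMSO and 98.8 to 107.6 with SAG, and EGFP at 90.5 to 112.8 and 110.6 to 133.8. Of 8 interstitial markers, which include the Hedgehog targets Gli1 and Ptch1, 6 rose, and their summed signal went from between 509.6 and 525.6 to between 1082 and 1276. Of 7 myoid and smooth muscle markers, 6 were tested and all 6 fell, their sum going from between 20400 and 21310 to between 12980 and 14200, with Rgs5 under the filter. Their part in the results on clock genes was not tested. Summed Leydig markers were 32.3 to 33.3 in DMSO and 19.0 to 115.7 with SAG, where SAG replicate 3 was highest. Summed signals of 6 Sertoli markers were 34.3 to 40.6 in DMSO and 32.5 to 34.4 with SAG. Those of 6 macrophage markers were 2.19 to 3.33 and 1.17 to 3.52, and those of 6 endothelial markers 31.3 to 38.1 and 35.2 to 50.1. Most of the endothelial sum was Cdh5, at 25.1 to 31.2 in DMSO and 28.3 to 43.8 with SAG. Emcn was lower with SAG, at 3.31 ± 0.58 in DMSO and 2.02 ± 0.31 with SAG. None of the 3 tested endothelial markers was called. Dppa3, Pou5f1, Nanos2 and Mael among 6 germ cell markers, and 4 of 7 erythroid markers, were at 0 in all libraries.

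Bhlhe40, the only repressor among the members outside the PER and CRY families, had the strongest change of the 10 members on the log2 scale. Its signal was 89.6, 90.3 and 84.9 in DMSO replicates 1 to 3 and 55.0, 54.0 and 45.0 in SAG replicates 1 to 3. All SAG libraries were lower than all DMSO libraries, and the highest SAG value was well under the lowest DMSO value. The mean fell from 88.3 ± 2.93 to 51.3 ± 5.55 (SD, n = 3 each), which is 1.72-fold lower. The log2 fold change was -0.78 (SE 0.11, 95% interval -1.03 to -0.52; limma with Benjamini-Hochberg adjusted p = 0.00116). Without SAG replicate 3 it was -0.69, and the call held with each library left out in turn. On GRCm38, Bhlhe40 spans 108660629 to 108666925 of chromosome 6 (plus strand). An antisense gene, 0610040F04Rik, overlaps its exons and had signals of 8.82, 8.135 and 6.26 in DMSO and of 7.80, 9.22 and 1.41 with SAG. The kit preserved strand, but the strand setting of the counting is not given, so reads of such pairs may be shared.

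Of the activators, Clock fell and the gene of its partner, Arntl, did not pass the test. Clock, which encodes a bHLH-PAS activator, had signals of 47.4, 45.0 and 49.1 in DMSO and of 28.9, 32.3 and 28.6 with SAG. The groups did not overlap, and replicates lay close together in both. Its mean fell from 47.1 ± 2.06 to 29.9 ± 2.05 (SD, n = 3 each), 1.57-fold lower, with a log2 fold change of -0.64 (SE 0.11, 95% interval -0.89 to -0.39; limma, Benjamini-Hochberg adjusted p = 0.00293). The log2 fold change stayed between -0.69 and -0.61 with each library left out, and was -0.61 without SAG replicate 3. Clock spans 76209868 to 76304792 of chromosome 5 (minus strand), and its printed promoter ends just before that start.

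Arntl, which encodes the partner of CLOCK, had signals of 11.97, 13.4 and 18.2 in DMSO and of 18.6, 16.8 and 16.3 with SAG. DMSO replicate 3 was as high as the SAG libraries, so the groups overlapped. On the log2 scale the fold change was 0.25 (95% interval -0.12 to 0.63; limma, Benjamini-Hochberg adjusted p = 0.281). An increase of up to about that upper bound, or a small decrease, is thus within the error. The ratio of Clock to Arntl signal, chosen after the values were seen, was 3.96, 3.37 and 2.70 in DMSO and 1.56, 1.92 and 1.76 with SAG. Each SAG library had a lower ratio than each DMSO library.

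Of the cryptochromes, which act with PER proteins as repressors, Cry2 rose and Cry1 did not pass the test. Cry2 had signals of 16.7, 16.3 and 18.7 in DMSO and of 22.7, 27.3 and 24.15 with SAG. No SAG library overlapped a DMSO library. The mean rose from 17.2 ± 1.31 to 24.7 ± 2.35 (SD, n = 3 each), 1.44-fold, with a log2 fold change of 0.50 (SE 0.13, 95% interval 0.20 to 0.79; limma, Benjamini-Hochberg adjusted p = 0.0195). The call was lost without DMSO replicate 1 (adjusted p = 0.0853), DMSO replicate 2 (0.0907) or SAG replicate 2 (0.0502), and held without SAG replicate 3, with log2 fold changes from 0.42 to 0.55 over the 6 fits. Cry2 spans 92403646 to 92434043 of chromosome 2 (minus strand). D930015M05Rik, on the opposite strand with overlapping exons, was also higher with SAG, at 1.12, 1.71 and 1.015 in DMSO and 2.64, 3.07 and 3.98 with SAG. Its part in the Cry2 signal was not tested.

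Cry1 stayed within a narrow range, at 17.5, 18.4 and 20.2 in DMSO and 18.3, 19.8 and 20.8 with SAG. The groups overlapped almost fully. Its log2 fold change was 0.07 with a 95% interval of -0.22 to 0.36 (limma, Benjamini-Hochberg adjusted p = 0.712). The ratio of Cry2 to Cry1, also chosen after the values were seen, was 0.955, 0.887 and 0.925 in DMSO and 1.24, 1.38 and 1.16 with SAG. Cry1 thus had the higher signal of the pair in each DMSO library and Cry2 in each SAG library, on the scale of signal per gene and not per length. Per kilobase of annotated exon, mean Cry1 was above mean Cry2 in both groups. The values were 5.60 and 2.73 in DMSO and 5.88 and 3.91 with SAG.

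None of the period genes, which encode the repressors that pair with CRY, passed the test. Per1 had signals of 21.3, 28.9 and 27.1 in DMSO and of 20.8, 38.8 and 22.6 with SAG. SAG replicate 2 alone was above the DMSO range, and SAG replicate 1 was just under it. The log2 fold change was 0.04 (95% interval -0.46 to 0.55; limma, Benjamini-Hochberg adjusted p = 0.907), and it turned to -0.23 without SAG replicate 2 and to -0.09 without DMSO replicate 1. Per2 had signals of 5.59, 5.59 and 4.91 in DMSO and of 5.71, 8.475 and 2.44 with SAG. SAG replicate 2 was above and SAG replicate 3 under all DMSO libraries. The log2 fold change of Per2 was -0.08 (95% interval -0.80 to 0.65; limma, Benjamini-Hochberg adjusted p = 0.878), against 0.33 when SAG replicate 3 was left out.

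Per3 differed from the other period genes in that its SAG libraries all lay above its DMSO libraries, though the difference between the genes was not tested. Its signals were 4.51, 5.04 and 3.78 in DMSO and 5.82, 6.57 and 6.04 with SAG. The mean was 4.44 ± 0.633 in DMSO and 6.14 ± 0.384 with SAG (SD, n = 3 each), and the log2 fold change 0.40 (95% interval 0.01 to 0.78; limma, Benjamini-Hochberg adjusted p = 0.111). It passed only with scaling by library total (log2 fold change 0.52, adjusted p = 0.0491), a setting that moves the median of all genes up by 0.13. Per3 rested on 47 to 109 reads per library. The exact 95% Poisson intervals of its SAG signals ran from 4.36 to 8.42 at their widest and those of DMSO from 2.93 to 6.08, so the intervals of the groups overlapped. Such intervals cover counting error only.

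The output activators Dbp and Tef, which bind D-boxes, did not pass the test. Dbp had signals of 4.85, 5.50 and 3.38 in DMSO and of 2.75, 5.19 and 8.35 with SAG. The SAG libraries spanned a wider range than the DMSO libraries on both sides. Its log2 fold change was 0.13 (95% interval -0.58 to 0.83; limma, Benjamini-Hochberg adjusted p = 0.789), against -0.19 when SAG replicate 3 was left out. Sphk2, a sphingosine kinase gene on the opposite strand whose exons overlap those of Dbp, was at 32.1, 40.2 and 49.6 in SAG replicates 1 to 3, the same order of libraries as Dbp. In DMSO Sphk2 was at 38.8, 30.7 and 31.9, which is not the order of Dbp there. Tef had signals of 31.9, 33.9 and 29.4 in DMSO and of 35.4, 30.4 and 43.8 with SAG. SAG replicate 3 was the highest and SAG replicate 2 lay within the DMSO range, with a log2 fold change of 0.18 (95% interval -0.15 to 0.51; limma, Benjamini-Hochberg adjusted p = 0.375).

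**Figure D2:**
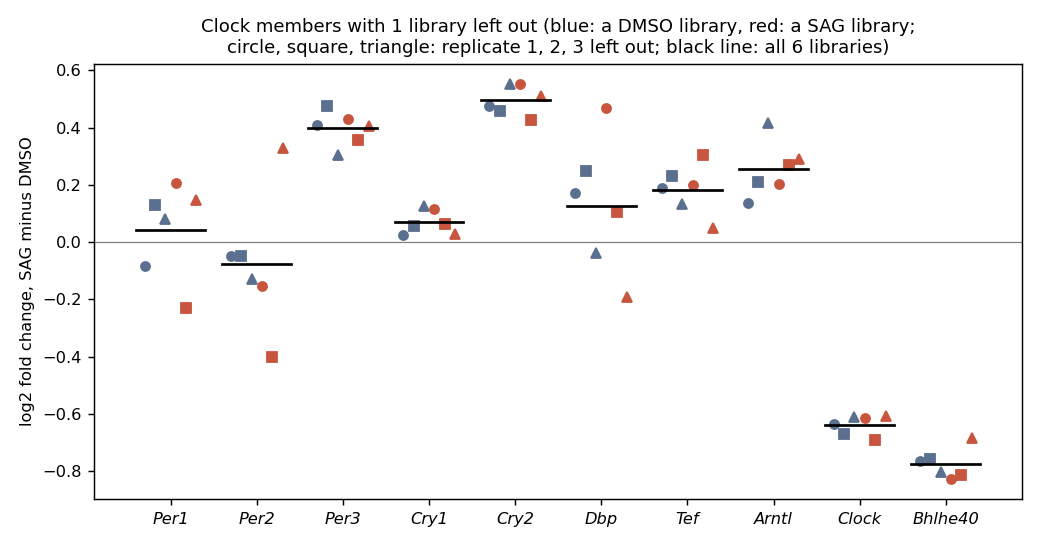
Log2 fold change (SAG minus DMSO, on log2(signal + 1)) of each clock gene with all 6 libraries (black line) and with 1 library left out (symbols, blue for a DMSO and red for a SAG library). Clock and Bhlhe40 stay between -0.83 and -0.61 and Cry2 between 0.42 and 0.55, while Per1, Per2 and Dbp cross 0.

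Spread between replicates split the members in another way. The SD of log2(signal + 1) over the SAG libraries was 0.74 for Per2, 0.66 for Dbp and 0.47 for Per1, where the median over all tested genes was 0.23. Among all tested genes these lay at percentiles 98.4, 97.3 and 89.2. By contrast Per3, Cry1, Arntl and Clock lay between percentiles 9.2 and 13.3 in SAG, with SDs of 0.08 to 0.09. In DMSO, where the median SD was 0.09, Dbp and Arntl had the widest spread at 0.29 each, and Bhlhe40 and Clock the narrowest at 0.05 and 0.06.

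The spread between libraries was also set beside counting error. For each member and group, the scatter of reads around the group's mean was divided by that expected from counting alone, so that a value near 1 is what counting error alone gives. It grows with the number of reads, and separate samples differ by more than counting error for most genes: its median over all tested genes was 2.775 in DMSO and 5.14 with SAG. In SAG this ratio was 32.4 for Per1, 13.55 for Per2, 12.5 for Dbp and 10.7 for Tef, percentiles 88.2, 74.0, 72.4 and 69.0 of all tested genes. It was 0.222 for Per3, 0.667 for Cry1, 0.697 for Arntl, 1.26 for Clock, 2.07 for Cry2 and 4.90 for Bhlhe40. In DMSO it was 14.3 for Per1 and 14.6 for Arntl, 4.83 for Dbp, 3.01 for Tef and 0.555 to 2.15 for the other 6. The reads behind the lowest values were 19 for Per2 in SAG replicate 3 (exact 95% Poisson interval of the signal 1.47 to 3.81) and 25 for Dbp in SAG replicate 1 (1.78 to 4.05). Per2 in SAG replicate 2 rested on 80 reads, with an interval of 6.72 to 10.55 that does not touch that of SAG replicate 3. The SAG libraries that were high differed by gene: replicate 2 for Per1 and Per2, and replicate 3 for Dbp and Tef.

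Within libraries, ratios of the output and PER genes to Arntl overlapped between the groups. The log2 ratio of Dbp to Arntl was -1.30, -1.28 and -2.42 in DMSO and -2.76, -1.70 and -0.97 with SAG, with full overlap. The log2 ratio of Per2 to Arntl was -1.10, -1.26 and -1.89 in DMSO and -1.70, -0.99 and -2.74 with SAG. The ratio of Per1 to Cry1 overlapped as well, with mean log2 values of 0.45 in DMSO and 0.42 with SAG, as did that of Per1 to Per2, at 2.25 and 2.42.

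**Figure D3:**
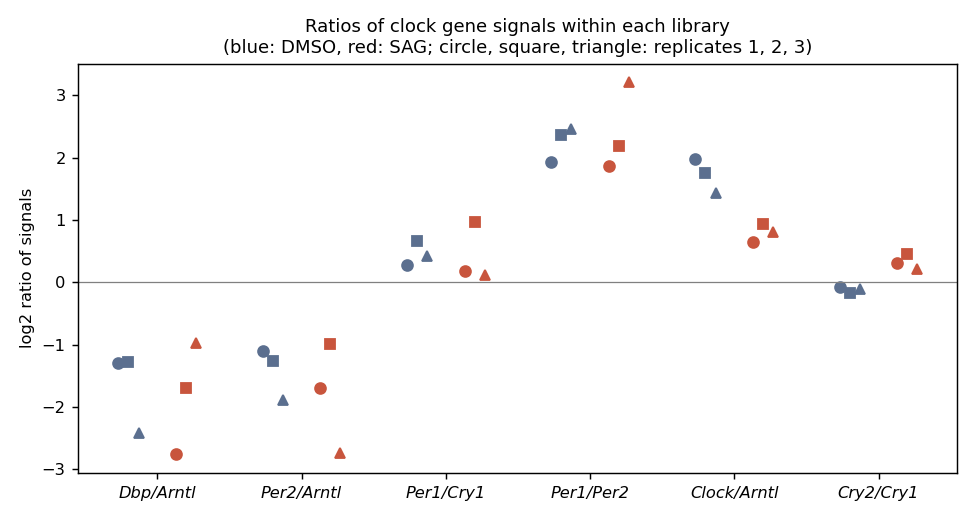
Log2 ratio of the signals of 2 clock genes within each library, with DMSO in blue and SAG in red; a ratio of signals is not corrected for gene length. The groups overlap for Dbp/Arntl, Per2/Arntl, Per1/Cry1 and Per1/Per2, and do not for Clock/Arntl and Cry2/Cry1, the pairs chosen after the values were seen.

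Levels were compared between genes as signal per kilobase of annotated exon, with lengths from GENCODE M21. In DMSO the order was Bhlhe40 (18.8 ± 0.622), Cry1 (5.60 ± 0.424), Per1 (4.575 ± 0.708), Tef (4.04 ± 0.283) and Clock (3.43 ± 0.150). Cry2 (2.73 ± 0.208), Arntl (1.93 ± 0.432), Dbp (1.53 ± 0.362), Per2 (0.916 ± 0.0676) and Per3 (0.4625 ± 0.0659) followed, each as mean and SD over n = 3. Neighbours overlapped between libraries for Per1 with Tef and for Arntl with Dbp, and for no other pair. With SAG, Bhlhe40 was still the highest at 10.9 ± 1.18 per kilobase. Clock, at 2.18 ± 0.149, went from rank 5 to rank 7 and overlapped with Arntl (2.29 ± 0.156) and Dbp (1.81 ± 0.939). Cry2 stood at 3.91 ± 0.372, overlapping with Tef at 4.64 ± 0.861. With SAG, neighbours in the order overlapped except Bhlhe40 with Cry1 and Cry2 with Arntl.

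The wider clock list held 45 genes found in the table, 40 of them tested, of which 4 rose and 5 fell. Against 12.9% and 16.6% of all tested genes, these counts too were near the background with all libraries. The median log2 fold change was -0.21, and -0.03 over all tested genes. The groups did not overlap for 24 of the 40 genes and for 48% of all tested genes. The counts moved with the libraries used. Without SAG replicate 3, 4 rose and 15 fell, where 19.7% and 27% of all tested genes did. Without DMSO replicate 1, 2 or 3, 1 to 2 rose and 1 to 2 fell, where 7.18% to 7.71% and 8.65% to 9.04% of all did. Nr1d1, which encodes the repressor REV-ERB alpha, had signals of 20.0, 15.0 and 16.9 in DMSO and of 25.4, 35.2 and 25.2 with SAG. Every SAG library was above every DMSO library, and the rise was 1.65-fold (log2 fold change 0.68, SE 0.17; limma, Benjamini-Hochberg adjusted p = 0.0143). The call was lost without DMSO replicate 2 (0.0707) or DMSO replicate 3 (0.0603). Its relative Nr1d2 (REV-ERB beta) did not pass, at 17.9 ± 0.647 in DMSO and 14.5 ± 3.68 with SAG (adjusted p = 0.205), but fell without SAG replicate 3 (log2 fold change -0.50, adjusted p = 0.00544). Rora, which encodes an activator of Arntl, was at 4.73 ± 0.729 and 4.86 ± 1.31, with an adjusted p of 0.958.

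Bhlhe41, the paralog of Bhlhe40 that encodes DEC2, also fell. Its signals were 14.0, 11.9 and 10.8 in DMSO and 5.05, 6.14 and 7.96 with SAG. The groups did not overlap, and the mean was 1.91-fold lower (log2 fold change -0.85, SE 0.19; limma, Benjamini-Hochberg adjusted p = 0.00879). Without DMSO replicate 1 the adjusted p was 0.0519. Its promoter window held an E-box at -153 to -148, and that of Nr1d1 an E′-box at -28 to -23.

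**Figure D4:**
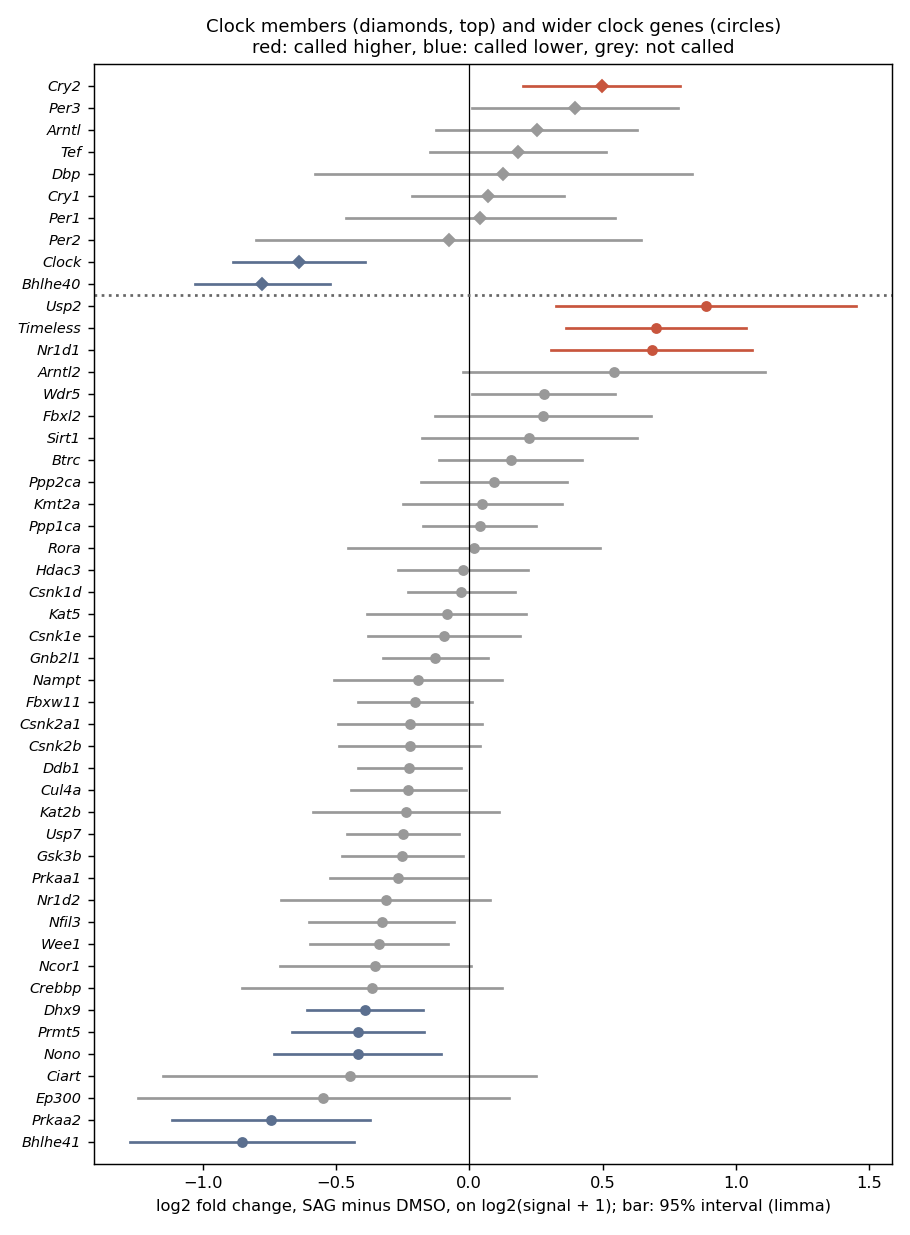
Log2 fold change (SAG minus DMSO, on log2(signal + 1)) with its 95% interval from limma for the 10 clock genes (diamonds) and tested genes of the wider clock list (circles); red was called higher, blue called lower, grey not called. Cry2, Usp2, Timeless and Nr1d1 lie to the right and Bhlhe40, Clock, Bhlhe41, Prkaa2, Nono, Prmt5 and Dhx9 to the left.

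Enzymes that set the life of clock proteins moved in different directions. Usp2, a deubiquitinase gene, rose from 2.84 ± 1.23 to 5.90 ± 0.786 (log2 fold change 0.89, adjusted p = 0.0255), a call lost without DMSO replicate 1 (0.100), DMSO replicate 3 (0.0787) or SAG replicate 1 (0.0534), without a filter (0.0512) and with thinned DMSO reads (0.0537). Prkaa2, which encodes a catalytic subunit of AMP-activated kinase, fell from 9.45 ± 1.19 to 5.23 ± 0.517 (log2 fold change -0.74, adjusted p = 0.00903; 0.0570 without DMSO replicate 2). The casein kinase genes Csnk1d and Csnk1e, whose products phosphorylate PER, did not pass, at 212.3 ± 2.64 and 208.1 ± 9.95 and at 106.3 ± 4.03 and 100.4 ± 17.0. Their log2 fold changes had 95% intervals of -0.23 to 0.17 and -0.38 to 0.19, the bars drawn in the plot of fold changes.

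Among partners of the loop, Timeless rose and Nono, Dhx9 and Prmt5 fell. Timeless, which in mammals is known mainly for its part in DNA replication, was at 11.3, 11.1 and 14.2 in DMSO and at 18.5, 20.1 and 22.7 with SAG. The rise was 1.67-fold (log2 fold change 0.70, SE 0.15; limma, Benjamini-Hochberg adjusted p = 0.00785) and held with each library left out. Nono, which encodes an RNA-binding partner of PER, was at 316.9 ± 5.82 and 239.9 ± 46.25 (adjusted p = 0.0475), a call lost without DMSO replicate 1, 2 or 3 or SAG replicate 2 (0.0535 to 0.148). It was also lost with no filter (0.0760), scaling by library total (0.202), limma without trend (0.0883), edgeR (0.0519) and DESeq2 (0.0518). The RNA helicase gene Dhx9 (197.5 ± 3.37 and 150.6 ± 12.5, adjusted p = 0.0151) and the arginine methyltransferase gene Prmt5 (74.5 ± 1.36 and 55.8 ± 5.82, adjusted p = 0.0203) lost their calls without DMSO replicate 1, 2 or 3 (0.0666 to 0.0925). They lost them with scaling by library total as well (0.0684 and 0.116).

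Of the other genes named by rule, none was called. Nfil3, which encodes a repressor that competes with DBP and TEF at D-boxes, was at 67.7 ± 2.12 in DMSO and 54.0 ± 7.18 with SAG (limma, Benjamini-Hochberg adjusted p = 0.0677), and fell without SAG replicate 3 (log2 fold change -0.40, adjusted p = 0.00135). Wee1, a cell cycle kinase gene under clock control, was at 27.3 ± 1.38 and 21.3 ± 0.476 (0.0514). It passed where genes needed a mean of 5 (0.0443), without trend (0.0495), in edgeR (0.0469) and without SAG replicate 3 (0.0218). Ciart, a repressor of CLOCK and BMAL1, was at 1.54 ± 0.0661 and 0.978 ± 0.845 (0.304), and Nampt, an enzyme of NAD synthesis, at 22.0 ± 2.52 and 19.1 ± 1.89 (0.327). Npas2, a CLOCK paralog, and Hlf, a relative of Dbp, were under the filter, at 0.648 ± 0.0278 and 1.10 ± 0.0994 and at 0.3615 ± 0.289 and 0.499 ± 0.242. The Npas2 groups did not overlap.

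Genes that share known inducers with Per1 were called in both directions, where 12.9% of all tested genes rose and 16.6% fell. Of 9 cAMP-CREB targets listed, 8 were in the table and tested, of which 1 rose and 1 fell. Fos, an immediate early transcription factor gene, rose from 4.63 ± 0.329 to 14.0 ± 4.59 (log2 fold change 1.37; limma, Benjamini-Hochberg adjusted p = 0.00166). Pde4d, which encodes a cAMP phosphodiesterase, fell from 37.1 ± 3.09 to 22.0 ± 3.82 (-0.74, adjusted p = 0.00607). Of 5 glucocorticoid targets 4 were tested, of which 1 rose and 1 fell. The counts of both lists are too small to set against the shares of all tested genes. Tsc22d3 rose from 19.95 ± 0.533 to 32.1 ± 10.9 (adjusted p = 0.0496), a call lost in 9 of 16 alternatives, among them those without DMSO replicate 1, 2 or 3 or SAG replicate 2 (0.0776 to 0.136). Fkbp5 fell from 122.3 ± 6.07 to 96.8 ± 2.29 (adjusted p = 0.0251), a call lost in 7, among them those without DMSO replicate 1, 2 or 3 or SAG replicate 1 (0.0538 to 0.128).

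The genes with the pattern most like that of a member were found by Pearson's r of log2(signal + 1) over the 6 libraries, which hold 2 separate groups, so r largely measures the shared difference between them. For Bhlhe40, the member with the smallest p among those lower, these were Adam10 (r = 0.9994), Myo1c (0.9987) and Dcbld2 (0.9987), and 117 genes had r above 0.99. Adam10, a membrane protease gene, went from a mean of 226 to 123.3. For Cry2, the member with the smallest p among those higher, they were Abcc9 (0.9978), Pcdhb20 (0.9971) and Stx1a (0.9952), and 11 genes had r above 0.99. Stx1a went from a mean of 14.9 to 22.7.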

How the data were processed

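The tools named, per the submitters' processing notes, are edgeR (version given as 2.2.1), featureCounts 2.0.0, STAR and Trim Galore 0.6.4, with build GRCm38 (mm10). Annotation, strand setting and filters are not given in the sources used here. Values in the 1 table that the authors deposited are treated as a scaled signal, since its columns have sums of 932712 to 1055620. In each column 100% of values were whole multiples of the smallest value (tolerance 0.01), which gave whole reads. The 92 spike-in rows were left out of tests. Columns were matched to samples by treatment and replicate number.

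The test was limma 3.58.1 (eBayes with trend) in R 4.3.3 on log2(signal + 1), with group as the single term, for genes whose mean signal was 1 or more. Such fold changes understate those of low genes. Folds without a log are ratios of group means. The alternatives were other pseudocounts and filters, scaling by library total, limma without trend, a replicate block, edgeR 4.0.16 and DESeq2 1.42.0 on the recovered reads, thinned DMSO reads and each library left out. On the recovered reads edgeR called 1709 genes higher and 2082 lower, and DESeq2 2065 and 2052.

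Named genes were the members, a fixed part of a wider clock list with any other called gene of it, called genes of the cAMP and glucocorticoid lists, Gli1 and Ptch1, and the 3 genes most like the leading member in each direction. Rack1 was found in the table under its older symbol Gnb2l1 through RefSeq synonyms, and Icer was not matched. Some genes of the wider list enter its counts but are not reported here. The members and lists were chosen with earlier results of these data known. Promoters are from RefSeq on GRCm38.p6, and coordinates and exon lengths from GENCODE M21 on GRCm38, in which 23376 of the symbols were found. No source says that replicates are separate cultures or animals. The p-values therefore measure the spread between these samples alone, and it may be technical.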

Additional observations from a re-analysis of the deposited data

Results flagged for a closer look

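The ERCC spike-in sequences lie outside the tests, and reads on them appeared in the SAG libraries and not in the controls. They numbered 0 in each of the 3 DMSO libraries, 111 in SAG replicate 1, 54 in SAG replicate 2 and 1205 in SAG replicate 3. No label mentions a spike-in, and the part of this difference in the results on clock genes was not tested. With 3 libraries in each group, no single library was tested as an outlier.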

How the results depend on the processing

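Over 16 alternatives, edgeR and DESeq2 among them, Bhlhe40 and Clock kept their direction and their call in each. The lower count of members was 2 throughout. The higher count of members was 1 (Cry2) except with scaling by library total, where Per3 joined it (2), and with libraries left out, where it was 0 to 1. In the wider list the higher count was 1 to 5 and the lower count 1 to 15 with each library left out, the last without SAG replicate 3, where 5 of the 15 were the genes called with all libraries. Scaling by library total gave 2 lower there. Over all genes 1625 were called higher and 2084 lower. Scaling by library total gave 2477 and 1259, moving the share of higher calls from 43.8% to 66.3%, and each library left out in turn gave 901 to 2463 and 1086 to 3373. The cause was not tested.

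Among the 33 named genes so compared, directions turned only for 6 that were not called with all libraries. Per1 ran from -0.23 to 0.21 on the log2 scale with each library left out, Per2 from -0.40 to 0.33, Dbp from -0.19 to 0.47, Rora from -0.16 to 0.12 and Csnk1d from -0.061 to 0.008. Per2 was also above 0 with scaling by library total (0.044), edgeR (0.063) and DESeq2 (0.085), as were Csnk1d (0.11) and Csnk1e (0.046) with scaling by library total, and Dbp was at -0.043 with thinned DMSO reads. Of 525 comparisons of single genes with an alternative, 455 kept direction and side of the threshold, 48 lost a call, 8 gained 1 and 14 changed sign.

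The replicate numbers showed no pairing of the samples in these values. The deviations of same-numbered libraries from their group means had correlations of -0.02, 0.03 and 0.00 across genes. With 3 libraries in each group, these values cannot tell whether a number marks a shared origin. A replicate block gave 1 higher and 2 lower members and 4 higher and 5 lower genes of the wider list, and Fkbp5 had an adjusted p of 0.0589 (limma). The DMSO libraries hold 2.67 times the reads of the SAG libraries on average. Of the members, Per2, Dbp and Per3 rest on the fewest reads, 19, 25 and 47 in their lowest library.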

Other observations

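In the wider clock list, the genes of 3 large co-regulators had their lowest signal in SAG replicate 3. Ep300, which encodes an acetyltransferase, was at 91.7, 94.1 and 92.7 in DMSO and at 84.4, 89.7 and 33.1 with SAG. Crebbp, its paralog, was at 53.7, 49.0 and 52.5 and at 46.25, 52.0 and 26.3, and Ncor1, a co-repressor that works with REV-ERB, at 168.8, 173.5 and 165.1 and at 144.1, 160.4 and 99.9. None was called by limma with all libraries (Benjamini-Hochberg adjusted p = 0.211, 0.232 and 0.123). Fbxl21, which encodes a ligase subunit that acts on CRY, was under the filter at 1.08, 0.693 and 1.18 in DMSO and 0.439, 0 and 0.128 with SAG, and was called lower when no filter was used. The choice of these genes was made with their values in view.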
